A study of Heliconius erato cyrbia and Heliconius erato demophoon with 32 samples.

Results

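The difference between wing regions was compared between stages of pupal development in Heliconius erato, with all 32 libraries of the series as members, 2 from each of 16 animals. The main wing was set against the anterior hindwing within each animal, and the question was whether this regional difference changed between 50% and 70% of development. The change was averaged over the subspecies H. e. cyrbia and H. e. demophoon, which gave 8 animals at each stage. It is called the region-by-stage term. It is the log2 ratio of main wing to anterior hindwing at 70% minus the same ratio at 50%, so that a positive term means that the main wing gained on the anterior hindwing.

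A butterfly wing is a thin epithelium in which scale cells and their socket cells form in rows. During pupal development each scale cell grows out, builds a cuticle with longitudinal ridges around actin bundles, and receives pigment late. In butterflies the Hox gene Ultrabithorax gives the hindwing its identity, and the anterior hindwing of male Heliconius bears androconial scales, which release scent. A locus that differs between these regions may thus differ by wing, by scale type or by the timing of scale growth.

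All animals were pupae from captive populations raised on Passiflora biflora. H. e. cyrbia has iridescent blue wings and H. e. demophoon has not. The anterior hindwing sample held the androconial region, and the main wing sample held the forewing together with the posterior hindwing, so that forewing against hindwing and androconial against other scales cannot be told apart in these samples. There were 4 animals of each subspecies at each stage. At 50% there were 2 males and 2 females of cyrbia and 1 male and 3 females of demophoon. At 70% all 4 cyrbia were males, and demophoon again had 1 male and 3 females. Stages were compared between animals, and in cyrbia sex was not balanced over them.

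Library totals ran from 9330883 to 68986011 counts. At 50% the anterior hindwing had 36642330 to 45271888 counts and the main wing 9330883 to 53219769. At 70% these ranges were 15955785 to 68986011 and 12966760 to 58169692. Of the counts of a library, 23.9% to 33.7% at 50% and 29.3% to 44.5% at 70% came from its 10 most abundant loci. Library numbers 1 to 16 were all from 70% and 17 to 32 all from 50%, so that library order and stage cannot be told apart. The part of depth and of the most abundant loci in the results was not tested beyond the thinned counts given below. In whole tissue, fewer cells of a type and less RNA per cell cannot be told apart either. The files give loci by assembly ID, some with the ID of a gene model (annotated loci), and pair none with a gene name. Tissue and cell type markers could therefore not be checked, and loci are given by ID and chromosome with no role.

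The region-by-stage term passed a false discovery rate (FDR) of 0.05 at 39 of 18276 loci (0.213%, edgeR quasi-likelihood test). The main wing gained at 22 of them (0.120% of loci tested) and lost at 17 (0.0930%). These numbers were small beside those for stage itself. Between 50% and 70%, 6015 of 15485 loci were differentially expressed (DE) in the main wing (38.8%) and 5570 of 16457 in the anterior hindwing (33.8%). Leaving out 1 animal moved the count of 39 by over 1.5 times for animals 9 (22 loci), 10 (61), 14 (24), 15 (20) and 16 (65). For the region-by-stage term, 2155 loci had an unadjusted p below 0.05 and 136 an FDR below 0.1. The median term over all loci was 0.06 and the median absolute term 0.30, against a median absolute term of 1.09 at the 39 called loci. These 39 were selected by the test of this same term, which favours large values. The absolute term was at least 1 at 21 of the 39 and at least 2 at 5.

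A test passes more readily at higher counts, so that a list of called loci favours abundant ones. The 39 loci were more abundant and more often annotated than all loci tested, and the part of this selection was not tested. Their median level over the 32 libraries was 23.8 CPM (counts scaled to normalised library size), against 2.61 CPM for all loci tested, and their levels ran from 0.686 to 2703 CPM. Only 2 lay under 1 CPM and 7 over 100 CPM. Of the 39 loci, 35 matched a gene model (89.7%, against 53.7% of loci tested), which was 0.356% of the annotated and 0.0473% of the unannotated loci. They lay on 15 of the 21 chromosomes. Chromosome 13 held 1 locus at which the main wing gained and 4 at which it lost, and chromosome 18 held 2 and 2. These counts were not set against the number of loci tested on each of these chromosomes. On the Z chromosome 0 of 688 loci were called by edgeR (66 at an unadjusted p below 0.05), and on chromosome 20 there were 2 of 956 (123 at an unadjusted p below 0.05). Over all loci tested there were 39 of 18276 (0.213%, 2155 at an unadjusted p below 0.05 in edgeR). Whether either chromosome departed from this share was not tested.

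**Figure D1:**
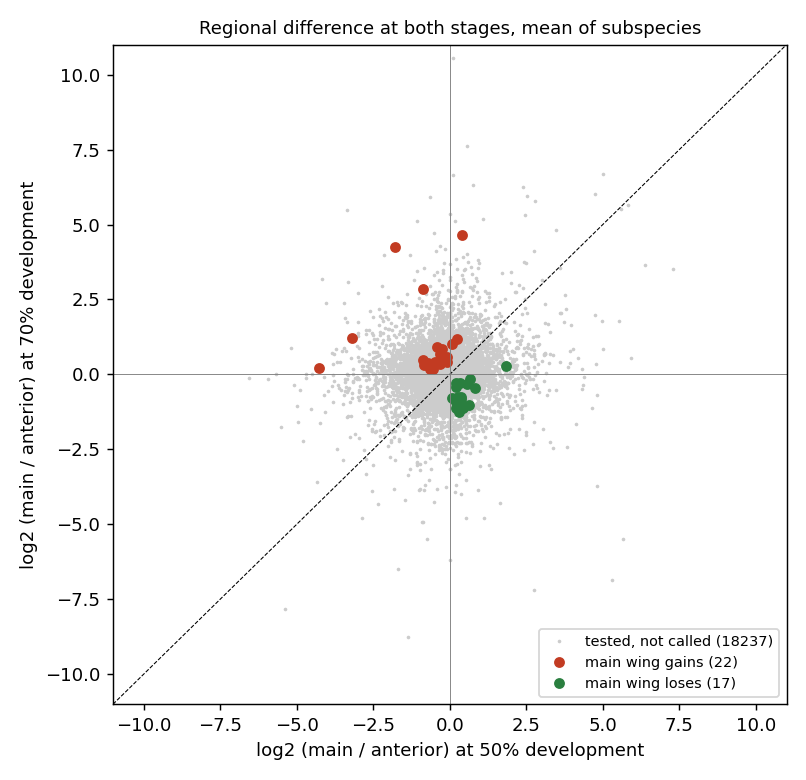
Log2 ratio of main wing to anterior hindwing at 50% (x axis) and at 70% (y axis), mean of both subspecies, for each locus tested; grey points are the loci not called for region by stage and the dashed line marks equal ratios. The 22 loci at which the main wing gained (red) lie above the line and the 17 at which it lost (green) below it, and the ratio has opposite signs at the stages in 35 of the 39.

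The regional difference itself was called at 120 loci at 50% (0.657%, with the main wing higher at 64 and the anterior hindwing at 56) and at 610 loci at 70% (3.34%, 391 and 219). Without loci that switch between regions of an animal, from 0 to at least 50 counts, the split at 70% was 299 and 315. Single animals weighed on both counts. The count at 70% was 339 without animal 9, 285 without 11, 317 without 12, 175 without 14 and 176 without 15, and at 50% it was 56 without animal 1, 72 without 4, 68 without 6 and 73 without 8. With cyrbia males and demophoon females alone (5 animals at 50% and 7 at 70%) it was 95 at 70%, and with a region-by-sex term 389. Of the loci called with all animals, 24 were called at both stages, 20% of the earlier list and 3.93% of the later one, and 23 of the 24 kept their direction. A call at 1 stage alone is no test of a change. Of 586 loci called at 70% only, 25 also passed for region by stage (4.27%), and of 96 called at 50% only, 11 did (11.5%), against 0.213% of all loci tested. The 3 tests share their libraries, and a locus called at either stage had a regional ratio from which the term was computed.

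Whether the regions of an animal stood further apart at the later stage was asked with 1 value per animal. The regional distance was the median absolute deviation of the log2 ratio between both regions from the median ratio of the same animal. A shift shared by all loci is thus removed. The distance was taken over 5799 loci with a mean of at least 10 CPM, after thinning every library to 9330883 counts. It ran from 0.164 (animal 7, demophoon) to 0.318 (animal 4, cyrbia) at 50% and from 0.160 (animal 16, demophoon) to 0.286 (animal 15, demophoon) at 70%. The stages overlapped over most of their range. The mean was 0.210 ± 0.0534 at 50% and 0.224 ± 0.0504 at 70% (SD, n = 8), a difference of 0.0144 (exact permutation test within subspecies, two-sided, p = 0.570). In cyrbia the difference was −0.0159 and in demophoon 0.0447 (exact permutation, p = 0.714 and 0.4). With cyrbia males and demophoon females alone the sign turned, to −0.0217 (exact permutation, p = 0.463). Thus no change of the typical distance was detectable, although more loci passed the test between regions at 70%.

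**Figure D2:**
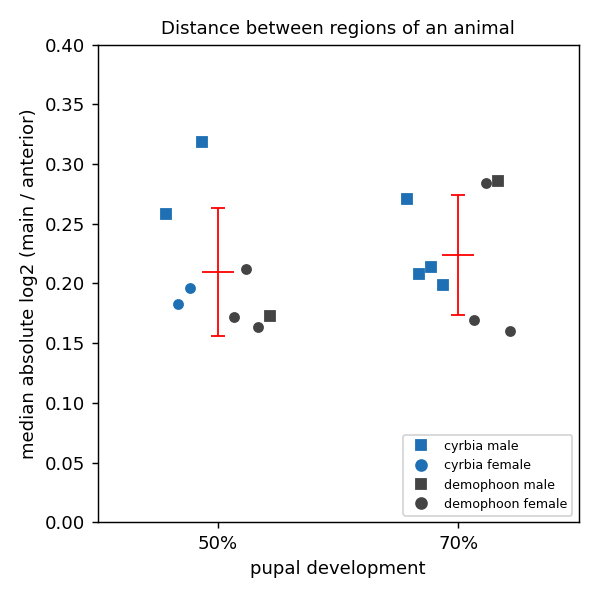
Median absolute log2 ratio of main wing to anterior hindwing, centred on the median ratio of the animal, in each of the 16 animals at 50% and 70% of development. The mean and SD of 8 animals are in red, squares are males and circles females. The animals at 50% (0.164 to 0.318) and at 70% (0.160 to 0.286) covered nearly the same range.

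At 13 of the 22 loci with a gain, the regions differed by test at 70% alone, with the main wing higher. Their log2 ratio at 70% ran from 0.42 to 4.66 (median 0.84), and at 50% from −1.78 to 0.40 (median −0.27). The largest term was that of MSTRG.10853, an annotated locus on chromosome 11. In cyrbia at 50% its main wing level was 0.135, 0, 0.163 and 0.715 CPM, beside 2.68, 0.559, 0.244 and 2.22 CPM in the anterior hindwing of the same animals. In demophoon at 50% it was 1.36, 1.44, 1.18 and 1.01 CPM beside 4.54, 1.99, 1.5 and 2.48 CPM. All 8 animals at 50% thus had less of it in the main wing.

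At 70% the main wing of the cyrbia animals had 23.4, 2.12, 60.6 and 30.9 CPM of MSTRG.10853, and their anterior hindwing 2.39, 3.82, 4.98 and 2.99 CPM. The main wing of the demophoon animals had 120, 42.2, 180 and 5.83 CPM, and their anterior hindwing 2.31, 1.13, 1.49 and 0.0892 CPM. Thus 7 of 8 animals had more of it in the main wing, and only in animal 10 of cyrbia was it lower. The term was 6.03 (SE 0.74, FDR 0.00707), with 5.09 (SE 1.12, FDR 0.137) in cyrbia and 6.96 (SE 0.98, FDR 0.0245) in demophoon. From 50% to 70% the locus rose in the main wing (log2 fold change 6.53, FDR 1.79e-05), and in the anterior hindwing the log2 fold change was 0.19 (FDR 0.847). It was called in each of 16 fits that left out 1 animal, and it was the only one of the 39 that was also called without the animal as a block (FDR 0.00820).

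**Figure D3:**
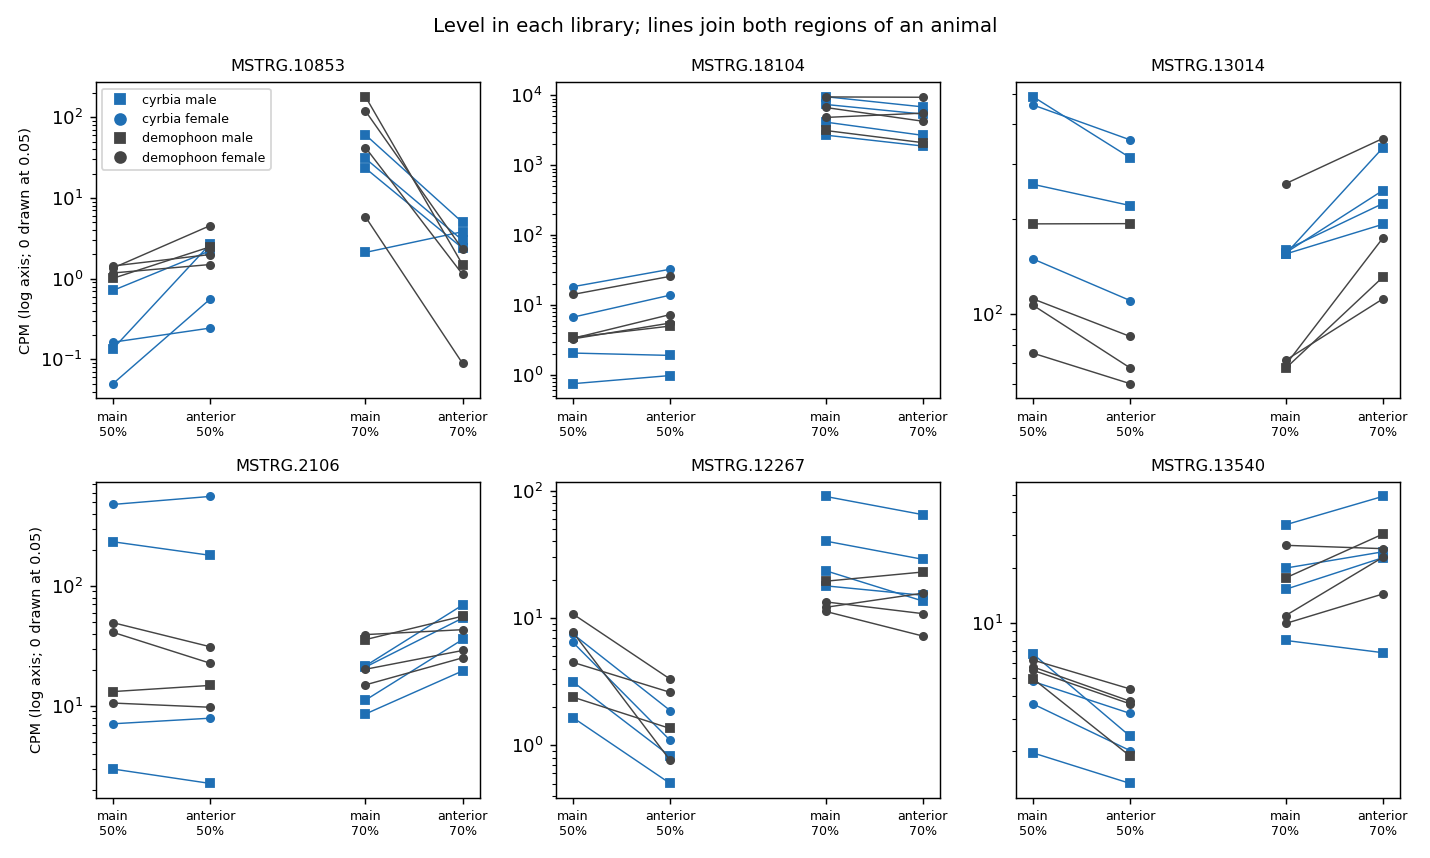
Level in CPM (log axis, a count of 0 drawn at 0.05) of 6 loci in every library, with a line joining the regions of an animal; blue is cyrbia, dark grey demophoon, squares are males and circles females. Lines of MSTRG.10853 climb from main wing to anterior hindwing at 50% and drop at 70% in all but 1 animal, whereas those of MSTRG.13014 drop at 50% in 7 of 8 animals and climb at 70% in all 8.

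MSTRG.19764 on chromosome 19, which is annotated, had per-animal log2 ratios from −0.95 to 0.42 at 50% (median −0.42) and from 0.41 to 1.42 at 70% (median 0.81). The main wing was higher in 1 of 8 animals at 50% and in 8 of 8 at 70%, with animal 2 of cyrbia the exception at 50%. The ratios of the stages overlapped in this 1 animal. The term was 1.32 (SE 0.19, FDR 0.00707). The locus fell in the anterior hindwing, by 2.68 on the log2 scale (FDR 0.000312), whereas in the main wing the change was −1.36 (FDR 0.0582).

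MSTRG.17430 on chromosome 17, also annotated, moved in the same way in the mean of both subspecies. Its ratios ran from −0.54 to 0.22 at 50% (median −0.25) and from 0.19 to 0.81 at 70% (median 0.58), overlapping only through animal 7 of demophoon. The term was 0.81 (SE 0.12, FDR 0.00754). It fell in the anterior hindwing by 1.16 on the log2 scale (FDR 0.00191), and the main wing change was −0.36 (FDR 0.313).

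Among the more abundant loci, MSTRG.16897 on chromosome 17 had a median of 1033 CPM in the main wing and 1073 CPM in the anterior hindwing at 50%, and of 322 and 198 CPM at 70%. It fell in both regions, by 1.58 on the log2 scale in the main wing (FDR 2.26e-05) and by 2.43 in the anterior hindwing (FDR 4.34e-07). The unequal fall gave a term of 0.92 (SE 0.15, FDR 0.0114). All 8 animals had more of it in the main wing at 70%, as against 2 of 8 at 50%.

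MSTRG.15588 on chromosome 15 instead rose in both regions in the mean of both subspecies. Its main wing level ran from 30.5 to 203 CPM at 50% (median 74.6) and from 127 to 955 CPM at 70% (median 282), and its anterior hindwing level from 29.2 to 235 CPM (median 84.2) and from 80.2 to 534 CPM (median 197). The log2 fold change was 2.42 in the main wing (FDR 6.25e-05) and 1.51 in the anterior hindwing (FDR 0.00401). In cyrbia the medians went from 32.4 to 316 CPM in the main wing and from 45.1 to 197 CPM in the anterior hindwing. In demophoon they went from 139 to 272 CPM and from 188 to 184 CPM. The median of the demophoon anterior hindwing thus did not rise. The term was 0.97 (SE 0.17, FDR 0.0208). It kept its call in 12 of the 16 fits without 1 animal, the highest FDR being 0.0740 without animal 14.

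The ratios of MSTRG.6638 on chromosome 7 and MSTRG.14433 on chromosome 14 did not overlap between stages at all. For MSTRG.6638 they ran from −0.27 to 0.06 at 50% and from 0.17 to 0.80 at 70%, and the term was 0.50 (SE 0.10, FDR 0.0451). For MSTRG.14433 they ran from −0.36 to 0.15 and from 0.26 to 1.31, and the term was 0.67 (SE 0.13, FDR 0.0454). Both were nonetheless near the threshold, with a call in 1 and 4 of the 16 fits without 1 animal and a highest FDR of 0.110 (without animal 15) and 0.102 (without animal 9). Over all 39 loci the ratios of the stages did not overlap at 9, of which 2 were gains and 7 losses, against 42 of 18276 loci tested (0.230%). This count describes loci that the same libraries had selected.

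The other loci with a higher main wing at 70% alone included MSTRG.15836 and MSTRG.14346, whose levels rose steeply. MSTRG.15836 on chromosome 15 had a median of 6.30 CPM in the main wing and 6.91 CPM in the anterior hindwing at 50%, and of 104 and 51.8 CPM at 70%. The main wing was higher in 8 of 8 animals at 70%. Its term was 0.96 (SE 0.19, FDR 0.0454).

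For MSTRG.14346 on chromosome 14 the medians were 11.9 and 10.7 CPM at 50%, and 130 and 61.0 CPM at 70%. Again 8 of 8 animals had more in the main wing at 70%, as did 6 of 8 at 50%. The term was 0.92 (SE 0.18, FDR 0.0454). Both calls depended on single animals, with a highest FDR of 0.109 without animal 15 for MSTRG.15836 and of 0.0953 without animal 12 for MSTRG.14346. The loci MSTRG.18996 on chromosome 19 (term 0.94, FDR 0.0376) and the unannotated MSTRG.15411 on chromosome 15 (term 1.10, FDR 0.0451) had the same pattern, and were called in 4 and 3 of the 16 fits without 1 animal.

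At 7 loci with a gain the regions differed by test at 50% alone, with the anterior hindwing higher. Their log2 ratio at 50% ran from −4.27 to −0.56 (median −0.83) and at 70% from 0.18 to 1.22 (median 0.32). This group held the most abundant of the 39 loci. MSTRG.18104 on chromosome 18 covers 3 gene models, and reads of these cannot be told apart in the table. At 50% its main wing level was 2.06, 18.3, 6.72 and 0.751 CPM in cyrbia and 3.35, 3.29, 14.2 and 3.45 CPM in demophoon. The anterior hindwing of the same animals had 1.91, 32.6, 13.9 and 0.981 CPM, and 7.32, 5.53, 25.8 and 5.01 CPM. The anterior hindwing was higher in 7 of 8 animals, with male 1 of cyrbia the exception.

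At 70% MSTRG.18104 reached 4154, 9596, 2705 and 7432 CPM in the main wing of cyrbia and 4842, 6721, 3152 and 9519 CPM in that of demophoon. The anterior hindwing had 2688, 6862, 1890 and 5411 CPM in cyrbia and 5580, 4280, 2111 and 9417 CPM in demophoon. Every library at 70% thus lay far above every library at 50%, and the main wing was the higher region in 7 of 8 animals. The rise was 9.85 on the log2 scale in the main wing (SE 0.79, FDR 1.32e-07) and 8.73 in the anterior hindwing (SE 0.87, FDR 1.5e-06). The regional ratio was −0.70 at 50% (SE 0.12, FDR 0.0111) and 0.39 at 70% (SE 0.11, FDR 0.0721). The term was 1.09 (SE 0.17, FDR 0.00836), nearly equal in cyrbia (1.10) and demophoon (1.09).

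MSTRG.14367 on chromosome 14, an annotated locus, followed the same course. Its main wing level ran from 0.966 to 11.3 CPM at 50% (median 3.29) and from 2285 to 5807 CPM at 70% (median 2891). Its anterior hindwing level ran from 1.57 to 21.5 CPM (median 5.77) and from 1585 to 3441 CPM (median 2646). The anterior hindwing was higher in 7 of 8 animals at 50% and in 1 of 8 at 70%. The rise was 9.71 on the log2 scale in the main wing (FDR 4.81e-09) and 8.39 in the anterior hindwing (FDR 1.87e-07), which left a term of 1.16 (SE 0.19, FDR 0.0114).

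MSTRG.18529 on chromosome 18 had a higher level in the anterior hindwing in 6 of 8 animals at 50%, among them all 4 of demophoon. Its log2 ratios in demophoon at 50% were −0.74, −1.29, −0.76 and −0.88, and in cyrbia −0.27, 0, 0.07 and −0.35. At 70% they were 0.05, 0.10, 0.14 and −0.14 in demophoon and 0.24, 0.16, 0.45 and 0.39 in cyrbia. The stages did not overlap within either subspecies. The term was 0.74 over both (SE 0.11, FDR 0.00707), 1.01 in demophoon (SE 0.15, FDR 0.0234) and 0.47 in cyrbia (SE 0.15, FDR 0.281), and the difference between subspecies was not called (FDR 0.600).

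The unannotated MSTRG.16191 on chromosome 16 (term 1.36, SE 0.25, FDR 0.0386) and MSTRG.13445 on chromosome 13 (term 0.81, SE 0.16, FDR 0.0454) were likewise higher in the anterior hindwing at 50%, in 7 of 8 and 8 of 8 animals. They were called in 4 and 3 of the 16 fits without 1 animal. At 2 further loci the regions differed by test at neither stage. For the unannotated MSTRG.15933 on chromosome 16 the ratio was −0.49 at 50% (FDR 0.0575) and 0.41 at 70% (FDR 0.0552), and the term 0.90 (SE 0.16, FDR 0.0242). Its call was lost in 8 of the 16 fits without 1 animal, with an FDR of 0.0830 without animal 15. MSTRG.932 on chromosome 1 had a term of 0.66 (SE 0.13, FDR 0.0469) and was called in 1 of these 16 fits.

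The 4 largest terms beside that of MSTRG.10853 rested on libraries with few or no counts, and their fitted sizes depend on how a count of 0 is treated. Each of these 4 loci had a group of 4 libraries of 1 region that were all at 0. MSTRG.10853 had no such group, but its size also depends on low counts. In its cyrbia main wing at 50%, 1 library was at 0 and the highest count was 20. Its mean per-animal ratio with CPM + 0.5 was −0.97 at 50% and 3.63 at 70%, against fitted ratios of −1.78 and 4.25. MSTRG.20450 on chromosome 20 had the smallest p of the 956 loci there (term 4.49, SE 0.63, FDR 0.0208). In demophoon at 50% it had 0 counts in all 4 main wing libraries and 60, 32, 0 and 26 in the anterior hindwing. In cyrbia at 50% only animal 2 had any (main wing 19, anterior hindwing 37). At 70% every library had counts, from 81 to 2535 in the main wing and from 95 to 1235 in the anterior hindwing. Without animal 2 the FDR was 1, and in limma voom it was 0.129.

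The unannotated MSTRG.15877 on chromosome 16 (term 4.40, SE 0.72, FDR 0.0386) had 2068 and 1582 counts in the main wing and anterior hindwing of animal 10 of cyrbia at 70%. The other 7 animals at 70% had at most 16 and 46 counts. Without animal 10 the FDR was 0.0900. MSTRG.16940 on chromosome 17 (term 4.27, SE 0.79, FDR 0.0482) had at most 173 counts in any main wing library and 0 in all 4 anterior hindwing libraries of demophoon at 70%. Of the 4 main wing libraries of demophoon at 70%, 2 were also at 0. This locus was called in 4 of the 16 fits without 1 animal, and without animal 15 the FDR was 0.241. It did not pass with limma voom (FDR 0.0707) or with thinned counts (FDR 0.112). MSTRG.11394 on chromosome 12 (term 3.74, SE 0.70, FDR 0.0482) had 0 counts in all 4 anterior hindwing libraries of cyrbia at 70% and at most 7 in the main wing there. It was the only one of the 39 loci with opposite signs in the subspecies, 7.99 in cyrbia (SE 1.18) and −0.50 in demophoon (SE 0.64). The difference between subspecies was not called (FDR 0.102). MSTRG.11394 was called in 1 of the 16 fits without 1 animal, with a highest FDR of 0.153 without animal 9. The adjusted p of MSTRG.16940 and MSTRG.11394 was not given by DESeq2.

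**Figure D4:**
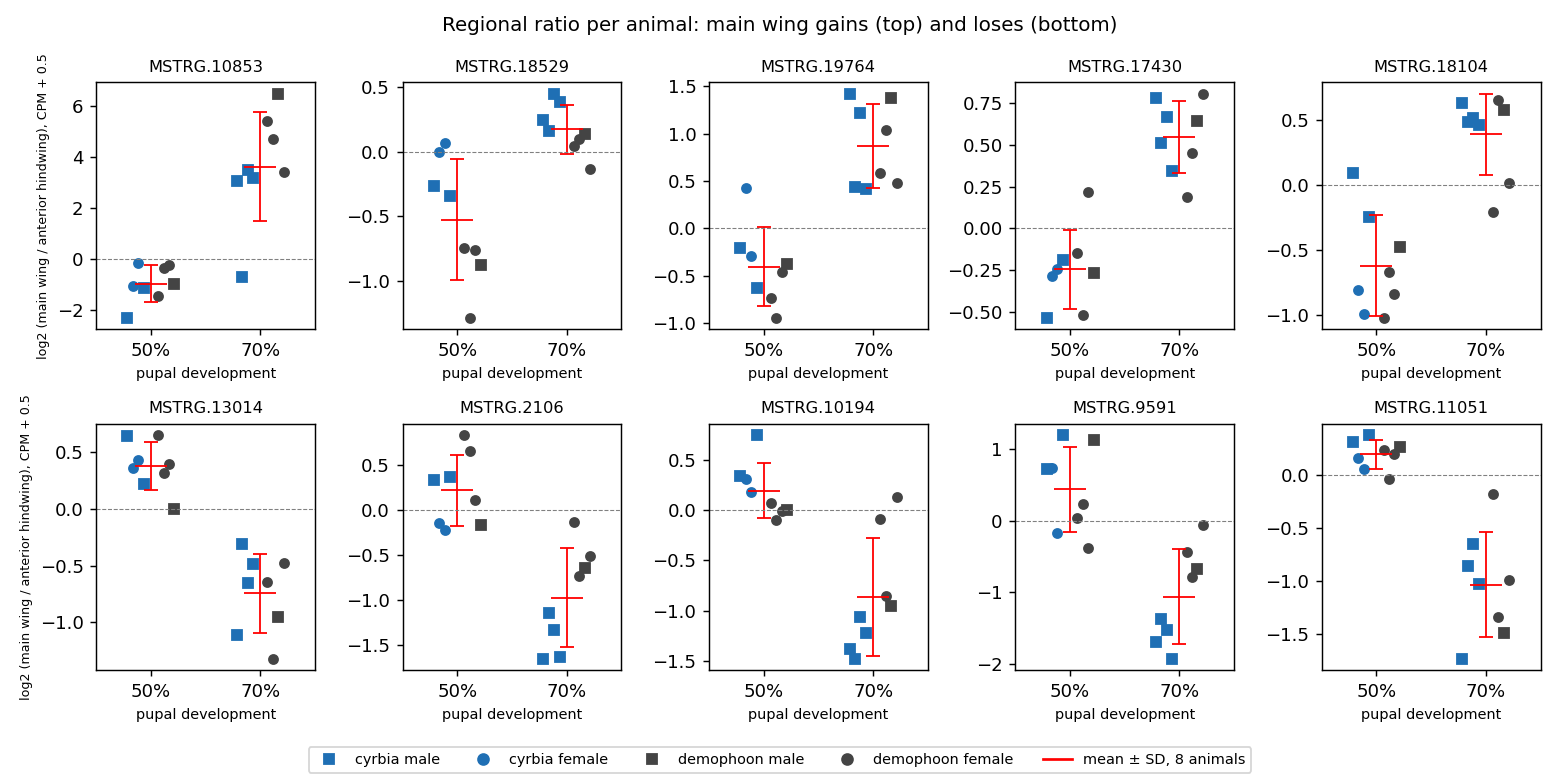
Log2 ratio of main wing to anterior hindwing (CPM + 0.5) in each animal at 50% and 70% of development, for the 5 loci with the smallest p among gains (top) and among losses (bottom); blue is cyrbia, dark grey demophoon, squares are males, circles females, and red marks the mean and SD of 8 animals. Ratios of gains lie mostly below 0 at 50% and above 0 at 70%, with animal 10 of MSTRG.10853 apart, and those of losses lie the other way.

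At 12 of the 17 loci at which the main wing lost, the regions differed by test at 70% alone, with the anterior hindwing higher. Their log2 ratio ran from 0.09 to 0.63 at 50% (median 0.25) and from −1.25 to −0.30 at 70% (median −0.86). MSTRG.13014, an annotated locus on chromosome 13, had the smallest p of all loci. At 50% its main wing level was 490, 461, 150 and 258 CPM in cyrbia and 107, 75.2, 112 and 193 CPM in demophoon. The anterior hindwing of the same animals had 314, 357, 111 and 221 CPM, and 67.6, 60.2, 85.0 and 194 CPM. The main wing was higher in 7 of 8 animals, and in animal 8 of demophoon both regions were equal to within 1 CPM.

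At 70% the main wing level of MSTRG.13014 was 155, 155, 157 and 160 CPM in cyrbia and 71.4, 69.0, 67.3 and 259 CPM in demophoon. The anterior hindwing had 337, 193, 247 and 224 CPM, and 112, 174, 131 and 361 CPM. It was higher in 8 of 8 animals, and the ratios of the stages did not overlap. The term was −1.13 (SE 0.14, FDR 0.00595), with −1.06 in cyrbia (SE 0.20, FDR 0.101) and −1.20 in demophoon (SE 0.20, FDR 0.0419). Neither region changed by test between stages, the log2 fold change being −0.58 in the main wing (FDR 0.177) and 0.52 in the anterior hindwing (FDR 0.231). Its neighbour MSTRG.13016, 2 locus numbers on, also lost in the main wing (term −1.17, SE 0.23, FDR 0.0482), but was called in 4 of the 16 fits without 1 animal. This was the only pair of called loci so close.

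MSTRG.2106 on chromosome 2 varied far more between animals than between regions. In cyrbia at 50% its main wing level was 2.98, 7.10, 477 and 233 CPM and its anterior hindwing level 2.26, 7.90, 556 and 180 CPM. At 70% the range was 8.57 to 39.3 CPM in the main wing and 19.6 to 69.3 CPM in the anterior hindwing over all 8 animals. The anterior hindwing was higher in 8 of 8 animals at 70%, and in 3 of 8 at 50%. The term was −1.23 (SE 0.16, FDR 0.00595), with −1.57 in cyrbia (SE 0.23, FDR 0.0123) and −0.88 in demophoon (SE 0.22, FDR 0.167). A difference between subspecies was not called (FDR 0.665). The ratios of the stages overlapped through females 2 and 3 of cyrbia at 50% and the male 8 of demophoon at 50%, which lay below the female 13 of demophoon at 70%.

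MSTRG.10194 and MSTRG.9591, both annotated and on chromosome 10, fell in both regions. MSTRG.10194 fell by 2.05 on the log2 scale in the main wing (FDR 1.47e-06) and by 0.88 in the anterior hindwing (FDR 0.0129). Its ratios in cyrbia were 0.33, 0.30, 0.18 and 0.75 at 50% and −1.38, −1.48, −1.06 and −1.23 at 70%. In demophoon they were 0.07, −0.10, −0.01 and 0.00 at 50% and −0.09, −0.85, −0.96 and 0.13 at 70%, so that the stages overlapped in demophoon and lay apart in cyrbia. The term was −1.11 (SE 0.16, FDR 0.00707), with −1.75 in cyrbia (FDR 0.00892) and −0.47 in demophoon (FDR 0.543). A test of the difference between subspecies did not pass (FDR 0.370).

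MSTRG.9591 fell by 2.62 on the log2 scale in the main wing (FDR 2.42e-09) and by 1.05 in the anterior hindwing (FDR 0.00295). Its main wing level ran from 27.8 to 48.1 CPM at 50% and from 4.53 to 7.84 CPM at 70%, and its anterior hindwing level from 18.1 to 63.0 CPM and from 6.98 to 30.0 CPM. The stages were thus fully apart in the main wing and overlapped in the anterior hindwing. The anterior hindwing was higher in 8 of 8 animals at 70% and in 2 of 8 at 50%. The term was −1.56 (SE 0.22, FDR 0.00707), with −2.34 in cyrbia (FDR 0.0105) and −0.78 in demophoon (FDR 0.431), and the difference between subspecies was again not called (FDR 0.461).

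The ratios of MSTRG.11051 on chromosome 11 ran from −0.04 to 0.37 at 50% and from −1.74 to −0.18 at 70%, with no overlap. It fell in the main wing by 1.85 on the log2 scale (FDR 3.89e-06), and the anterior hindwing change was −0.43 (FDR 0.224). The term was −1.32 (SE 0.19, FDR 0.00707). MSTRG.4778 on chromosome 3 had ratios from −0.21 to 0.85 at 50% and from −2.03 to −0.25 at 70%, again apart, although it changed by test in neither region, and its term was −1.56 (SE 0.25, FDR 0.0114).

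MSTRG.18114 on chromosome 18 rose in both regions and more in the anterior hindwing. Its main wing level ran from 3.69 to 15.0 CPM at 50% (median 9.11) and from 21.2 to 77.0 CPM at 70% (median 55.9), and its anterior hindwing level from 3.67 to 12.9 CPM (median 7.16) and from 31.7 to 128 CPM (median 99.3). The stages did not overlap in either region, nor did the ratios. The rise was 2.49 on the log2 scale in the main wing (FDR 1.62e-05) and 3.59 in the anterior hindwing (FDR 1.92e-06), and the term −1.01 (SE 0.15, FDR 0.00707).

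MSTRG.13199 on chromosome 13 had the largest loss. At 50% its main wing level ran from 177 to 14822 CPM (median 1299) and its anterior hindwing level from 70.1 to 15893 CPM (median 855), with the highest values in animals 3 and 4 of cyrbia. At 70% it ran from 25.1 to 95.3 CPM (median 57.0) and from 42.3 to 252 CPM (median 96.5). It fell in both regions, with a log2 fold change of −5.76 in the main wing (FDR 0.000145) and −4.21 in the anterior hindwing (FDR 0.00173). The term was −1.66 (SE 0.26, FDR 0.0105), with −2.46 in demophoon (SE 0.36, FDR 0.0234) and −0.86 in cyrbia (SE 0.36, FDR 0.434). A difference between subspecies was not called (FDR 0.507).

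The last 3 loci with a higher anterior hindwing at 70% alone had smaller terms near the threshold. These were −0.87 for MSTRG.1524 on chromosome 2 (FDR 0.0454), −0.65 for MSTRG.20597 on chromosome 20 (FDR 0.0451) and −0.52 for MSTRG.632 on chromosome 1 (FDR 0.0482). Their calls held in 3, 5 and 6 of the 16 fits without 1 animal. For MSTRG.20597 the ratios of the stages lay apart, from 0.04 to 0.66 at 50% and from −1.03 to −0.11 at 70%.

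At 4 loci the main wing was higher by test at 50% alone. The ratio of MSTRG.12267 on chromosome 12 at 50% was the largest of the 17, 1.82 (SE 0.22, FDR 0.000812). In cyrbia at 50% its main wing level was 3.14, 6.42, 7.47 and 1.64 CPM and its anterior hindwing level 0.820, 1.09, 1.87 and 0.501 CPM. In demophoon at 50% these were 10.7, 7.70, 4.47 and 2.38 CPM, and 3.31, 0.761, 2.6 and 1.35 CPM. In all 8 animals the main wing was higher.

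At 70% MSTRG.12267 had 17.9, 23.5, 90.1 and 40.2 CPM in the main wing and 15.1, 13.6, 64.8 and 28.9 CPM in the anterior hindwing of cyrbia. In demophoon it had 12.1, 11.3, 19.4 and 13.4 CPM, and 15.6, 7.21, 22.9 and 10.8 CPM. It was still higher in the main wing in 6 of 8 animals, but the ratio was 0.29 (SE 0.19, FDR 0.530). The term was −1.53 (SE 0.29, FDR 0.0443), and the call was lost in 10 of the 16 fits without 1 animal, with an FDR of 0.109 without animal 15.

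MSTRG.13540 on chromosome 13 was higher in the main wing in 8 of 8 animals at 50% and in 2 of 8 at 70%. Its ratios ran from 0.42 to 1.32 at 50% (median 0.55) and from −1.02 to 0.21 at 70% (median −0.51), with no overlap. It rose in both regions, by 1.86 on the log2 scale in the main wing (FDR 0.000212) and 3.20 in the anterior hindwing (FDR 3.55e-06), and the term was −1.27 (SE 0.20, FDR 0.0102). For MSTRG.19489 on chromosome 19 the term was −0.83 (SE 0.14, FDR 0.0208), with a call in 13 of the 16 fits without 1 animal and an FDR of 0.0605 without animal 9.

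MSTRG.708 on chromosome 1 had a term of −0.88 (SE 0.14, FDR 0.0108), with −1.36 in cyrbia (SE 0.20, FDR 0.0123) and −0.40 in demophoon (SE 0.20, FDR 0.589). The difference between subspecies was not called (FDR 0.480). Only at MSTRG.18458 on chromosome 18 did both stages pass the regional test in opposite directions. It had a median of 39.6 CPM in the main wing and 30.2 CPM in the anterior hindwing at 50%, and of 43.2 and 54.9 CPM at 70%. The main wing was higher in 8 of 8 animals at 50% and lower in 8 of 8 at 70%. The ratio was 0.32 at 50% (SE 0.07, FDR 0.0460) and −0.29 at 70% (SE 0.07, FDR 0.0315), and the term −0.62 (SE 0.10, FDR 0.0114). It rose in the anterior hindwing, by 0.76 on the log2 scale (FDR 0.00106), and in the main wing the change was 0.11 (FDR 0.585).

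Across the 39 loci the region that changed between stages was read from a fit to each region alone, which used the same libraries. Each such change is a mean of both subspecies. Of the 22 gains, 9 rose in both regions, 2 fell in both, 4 fell in the anterior hindwing alone, 2 rose in the main wing alone and 5 passed the test in neither. The falls in the anterior hindwing alone include MSTRG.16940 and MSTRG.11394, and the rises in the main wing alone include MSTRG.15877. Each of these loci had a group of libraries at 0. Of the 17 losses, 5 rose in both regions, 3 fell in both, 2 fell in the main wing alone, 3 rose in the anterior hindwing alone and 4 passed in neither. Where a locus passed in 1 region alone, the region-by-stage term is the test of the difference between regions.

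The subspecies were also taken alone. In cyrbia 5 loci were called (0.0274%, 1 gain and 4 losses), all of them among the 39, and in demophoon 8 (0.0438%, 6 gains and 2 losses), 5 of them among the 39. At 38 of the 39 loci the term had the same sign in both subspecies, which a mean over both favours by construction. With the 16 libraries of each subspecies alone in the fit there were 7 calls in cyrbia and 8 in demophoon. These small counts rested on single animals. In cyrbia the count was 0 without animal 4 (edgeR, 1646 loci at an unadjusted p below 0.05), 1 without animal 1 or 12, 3 without 2 or 9, 8 without 3 and 22 without 10. In demophoon it was 0 without animal 6 or 16 (edgeR, 1558 and 1790 loci at an unadjusted p below 0.05), 2 without 14 or 15, 5 without 5 and 18 without 13.

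**Figure D5:**
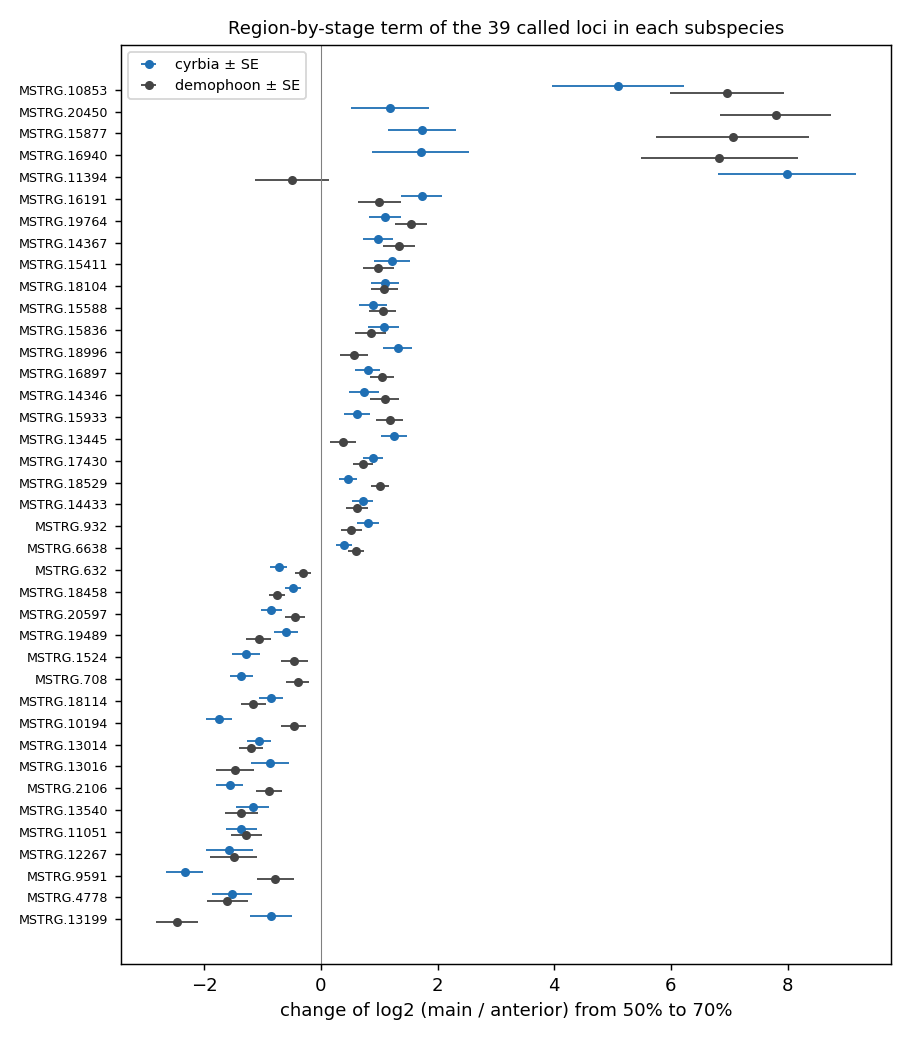
Region-by-stage term (x axis, log2 scale) of each of the 39 called loci in cyrbia (blue) and demophoon (dark grey), with bars of 1 standard error, ordered by the mean of both. The terms share a sign in 38 loci, and MSTRG.11394 has 7.99 in cyrbia and −0.50 in demophoon.

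A difference between subspecies in the region-by-stage term was called at 3 loci (0.0164%), none of them among the 39. MSTRG.1083, annotated and on chromosome 1, had adequate counts in every group. At 50% its main wing level was 12.5, 19.0, 5.72 and 12.4 CPM in cyrbia beside 17.4, 22.7, 7.36 and 17.7 CPM in the anterior hindwing. In demophoon at 50% it was 11.2, 11.0, 16.5 and 13.9 CPM beside 9.60, 7.92, 13.1 and 15.2 CPM. The anterior hindwing was higher in all 4 cyrbia and in 1 of 4 demophoon.

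At 70% MSTRG.1083 had 4.45, 3.58, 7.59 and 5.91 CPM in the main wing of cyrbia beside 3.18, 3.94, 3.85 and 3.78 CPM in the anterior hindwing. In demophoon it had 2.6, 2.6, 2.37 and 2.95 CPM beside 4.79, 4.99, 3.84 and 6.78 CPM, so that the anterior hindwing was higher in all 4 animals. The term was 0.89 in cyrbia (SE 0.22) and −1.15 in demophoon (SE 0.22), and they differed by 2.04 (SE 0.31, FDR 0.0247). The other loci were MSTRG.1305 on chromosome 2 (−5.17, SE 0.69, FDR 0.0247) and MSTRG.13543 on chromosome 13 (−5.72, SE 0.71, FDR 0.0247). At 50% these had at most 35 and 76 counts in any library, and several groups of libraries near 0. With cyrbia males and demophoon females alone none of the 3 was called, the FDR being 0.0754 for MSTRG.1083, 0.0988 for MSTRG.1305 and 0.243 for MSTRG.13543. Nor was any called with thinned counts (FDR 0.249, 0.0664 and 0.625 in the same order). None of the 3 was called by limma voom, in which the count was 0 (1477 loci at an unadjusted p below 0.05), and each lost its call in at least 10 of the 16 fits without 1 animal, with a highest FDR of 0.103 (without animal 4) for MSTRG.1083 and MSTRG.1305 and of 0.413 (without animal 1) for MSTRG.13543.

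On the Z chromosome the smallest p was that of MSTRG.21839, an unannotated locus. Its term was 0.80 (SE 0.18), which did not pass in edgeR (FDR 0.0701). It passed with DESeq2 (FDR 0.00106) and narrowly with limma voom (FDR 0.0494). It did not pass with a region-by-sex term (FDR 0.105), with 1 sex per subspecies (FDR 0.142) or with thinned counts (FDR 0.0984). The locus was called in 3 of the 10 alternatives and in 2 of the 16 fits without 1 animal. The highest FDR of those fits was 0.163, without animal 15. For MSTRG.21985, an unannotated Z locus that the study's text names, the main wing level at 50% was 6.28, 8.83, 6.37 and 3.15 CPM in cyrbia beside 4.65, 6.93, 4.32 and 6.85 CPM in the anterior hindwing. In demophoon at 50% it was 11.0, 9.96, 13.8 and 18.7 CPM beside 10.2, 11.8, 11.7 and 19.4 CPM. Animal 4 of cyrbia stood apart, with the lowest ratio of all.

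At 70% MSTRG.21985 had 10.0, 7.95, 6.42 and 8.17 CPM in the main wing of cyrbia beside 7.60, 9.18, 4.80 and 8.14 CPM, and 16.4, 16.8, 19.9 and 27.0 CPM in that of demophoon beside 16.8, 13.8, 18.1 and 23.5 CPM. The ratios of the stages overlapped. The term was 0.10 (SE 0.20, FDR 0.962), and no change of its regional difference was detectable.

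How far the 39 calls rested on single animals or on sex was checked locus by locus. The sign of the term was the same in every fit that gave a value for a locus. For 35 of the 39 that was all 10 alternatives and all 16 fits without 1 animal, and for the other 4 (MSTRG.20450, MSTRG.15877, MSTRG.16940 and MSTRG.11394) between 7 and 9 of the 10 alternatives. The 18 loci with the smallest p, 7 gains and 11 losses, were called in all 16 fits without 1 animal, and the other 21 lost the call at least once. Of the 39, 20 were also called with a region-by-sex term in the fit, 14 in cyrbia males and demophoon females alone, 35 with limma voom, 37 with DESeq2 and 32 with thinned counts. All 18 were also called with a region-by-sex term in the fit (highest FDR 0.0363), with DESeq2, with limma voom and with thinned counts. With cyrbia males and demophoon females alone, 11 of the 18 were called, 2 gains (MSTRG.18529 and MSTRG.19764) and 9 losses (MSTRG.13014, MSTRG.2106, MSTRG.10194, MSTRG.9591, MSTRG.11051, MSTRG.18114, MSTRG.13199, MSTRG.708 and MSTRG.4778). For MSTRG.10853 the FDR was then 0.0683. That fit kept 5 animals at 50% and 7 at 70%, so that the loss of animals and sex cannot be told apart in it.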

How the data were processed

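Pupal wings of 16 Heliconius erato animals were sampled in 2 regions, and RNA was sequenced from TruSeq libraries, 1 per region and animal. Per the submitters' processing notes, reads were handled with Trimmomatic (v. 0.38), HISAT2 (v. 2.1.0), SAMtools (v. 1.9), StringTie (v. 1.3.5) and edgeR. For the genome build, the annotation version and the use of strand it can be said only that they were not given in the sources used here. Counts per locus, not normalised, were deposited by the authors as 1 table of 24118 loci, of which 23078 had a count in at least 1 library. With StringTie, counts are estimated from the coverage of transcripts, and reads of overlapping or adjacent loci, including antisense ones, may be divided differently in each library. Per-sample columns left unused numbered 0. Of the loci, 13055 carried a gene model ID and 11063 did not, and 1784 carried a model ID alone. None of the model IDs matched the 14137 genes of the reference table (assembly Hedem_Duke_1.1), so that planned gene and marker lists could not be applied and no sequence is shown. Chromosomes were read from model IDs, unannotated loci were placed by neighbouring locus numbers, and 815 were not placed.

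Regions were tested in 1 fit to 32 libraries, with the animal as block and a region term in each subspecies-by-stage group, following the nesting of regions within individuals in the study's methods. The labels give the animal of each library. All 32 libraries correlated best with the other region of the same animal, and the r of deviations from group means within animals was 0.475 to 0.761. edgeR (v. 4.0.16, with limma v. 3.58.1 and R v. 4.3.3) was used with TMM factors, the filterByExpr filter, robust quasi-likelihood F tests and Benjamini-Hochberg adjustment over all loci tested, and FDRs in the text are from it unless another tool is named. An SE is the absolute log2 term over the square root of F. Stage was tested in each region alone, where no block is possible. Replicates are animals. Per-animal ratios used CPM + 0.5, and the scripts were tested on simulated data.

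Named loci were the 10 with the smallest p and the 5 with the largest term in each direction, among called loci with a mean of at least 1 CPM and the same sign in both subspecies, together with the smallest p on the Z chromosome and on chromosome 20, MSTRG.21985, and the loci called between subspecies. Other loci of the 39 were named after their values were seen. The comparison, the members and the lists were chosen with earlier results of these data known. Alternatives were RLE factors, other filters, DESeq2 (v. 1.42.0), limma voom, no block, a region-by-sex term, animals of 1 sex per subspecies, thinned counts, removal of loci that switch between the regions of an animal (0 against at least 50 counts), 1 subspecies alone, and each animal left out.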

Additional observations from a re-analysis of the deposited data

Results flagged for a closer look

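Among 116 groups of 4 animals tested for a value far from the rest, 5 had one, and chance gives about 1 in 20. For MSTRG.10853 in cyrbia at 70%, animal 10 had a log2 ratio of main wing to anterior hindwing of −0.72, and the others had 3.05 to 3.48. For MSTRG.14367 in cyrbia at 50%, animal 4 had 0.22, and the others −0.90 to −0.77. For MSTRG.20450 in cyrbia at 50%, animal 2 had −0.47, and the others had no counts in either region. For MSTRG.13540 in demophoon at 50%, animal 8 had 1.20, and the others 0.48 to 0.56. For MSTRG.21985 in cyrbia at 50%, animal 4 had −1.01, and the others 0.33 to 0.51.

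The region-by-stage term differed between subspecies (cyrbia minus demophoon, edgeR test of the difference itself, FDR 0.0247 each) by −5.17 at MSTRG.1305, −5.72 at MSTRG.13543 and 2.04 at MSTRG.1083. None of these loci was called with limma voom, with thinned counts or with 1 sex per subspecies, and MSTRG.1305 and MSTRG.13543 had groups of libraries near 0 counts.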

How the results depend on the processing

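The 39 loci called for region by stage kept the sign of their term in every fit that gave them a value (4 lacked one in at least 1 alternative), whereas the counts depended on the settings. The count of 39 became 130 with a minimum of 1 CPM in 16 libraries, 722 with DESeq2, 69 with limma voom, 22 with a region-by-sex term, 82 with thinned counts and 1 without the animal as block, and was 20 to 65 when 1 animal was left out. The 5 loci of cyrbia became 396 with DESeq2, 12 with limma voom, 1 without the block, 8 with the sex term and 20 with cyrbia males alone (0 to 22 without 1 animal). The 8 of demophoon became 21 with the 1 CPM minimum, 335 with DESeq2, 4 with limma voom, 0 without the block and 3 with females alone (0 to 18). The 3 loci that differed between subspecies became 112 with DESeq2, 8 with 1 sex per subspecies (none of the 3 among them) and 0 with limma voom, without the block, with thinned counts or without switching loci (0 to 4). The 120 regional calls at 50% became 533 with DESeq2, 221 with limma voom and 8 without the block (56 to 134). The 610 at 70% became 949 with the 1 CPM minimum, 1468 with DESeq2, 17 without the block, 389 with the sex term and 95 with 1 sex per subspecies (175 to 689). The cause of the gap between tools was not tested. Counts for stage stayed within 1.5 times. The regional distance turned to −0.0217 with 1 sex per subspecies (0.00424 to 0.0277 without 1 animal), and the term of MSTRG.21985 ran from −0.085 (without animal 4) to 0.17 (without animal 10), and reached 0.29 with 1 sex per subspecies. With 4 animals per subspecies and stage, and groups at or near 0 counts, the largest terms are the least precise.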
